A study of Mus musculus with 16 samples.

Results

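The 10 genes described here are parts and transcriptional targets of the erythropoietin receptor, JAK2 and STAT5 axis, chosen by symbol from 15386 genes in an RNA-seq table and 13490 genes in an m6A table, both of which listed all 10. The 4 pathway parts were *Epor*, *Jak2*, *Stat5a* and *Stat5b*, and the 6 target genes were *Cish*, *Socs1*, *Socs2*, *Socs3*, *Pim1* and *Osm*. The RNA-seq compared 3 libraries of control CFU-E cells with 3 Kit-lo libraries, which the labels give as *Mettl3*-deficient CFU-E, and the m6A experiment compared 2 immunoprecipitated (IP) with 2 input libraries of control CFU-E cells. CFU-E cells, the erythroid progenitors that depend on erythropoietin, were sorted from mouse bone marrow as Kit and CD71 positive cells without lineage markers, and the Kit-lo cells were the subset of the mutant CFU-E gate with very little Kit on the surface. Mice were C57BL/6, male and female, 10 to 16 weeks old. The mutant mice carried *Mettl3* fl/fl and 1 copy of *EpoR-tdTomato-Cre*, a Cre driver that follows expression of *Epor* and recombines in erythroid cells and in macrophages of erythroblastic islands. For other assays the study lists control mice with the same Cre and no floxed *Mettl3*, while the sample labels say only control. Whether *Epor* counts include transcripts of the Cre allele was not tested. Genotype and the Kit gate cannot be told apart, since no control cells with low Kit were analysed here. The paper reports higher blood erythropoietin in the mutant mice, and less Kit on CFU-E cells of mice injected with erythropoietin. Exposure to the ligand therefore differed along with genotype, and its part in the changes below was not tested.

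Erythropoietin binds the receptor EPOR, which has no enzyme activity of its own and carries the kinase JAK2 on its cytoplasmic side. Activated JAK2 phosphorylates the receptor, STAT5A and STAT5B dock there and are phosphorylated in turn, and STAT5 dimers enter the nucleus and bind the DNA motif TTCNNNGAA. Among their known targets are *Cish* and the SOCS genes, whose proteins bind the receptor or the kinase and dampen the signal, the kinase *Pim1* and the cytokine oncostatin M (*Osm*). METTL3 is the catalytic subunit of the complex that writes N6-methyladenosine (m6A) on mRNA.

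In CFU-E Kit-lo 5 of the 6 target genes and 1 of the 4 pathway parts were called higher. *Cish* rose 9.08-fold, *Osm* 2.25-fold and the 3 SOCS genes by more than 4-fold, whereas *Epor* rose 1.51-fold and *Jak2*, *Stat5a* and *Stat5b* were not called in either direction. A gene was called when its fold change was at least 1.5 and its Benjamini-Hochberg adjusted p-value in edgeR's quasi-likelihood test was under 0.05. By this rule 6 of the 10 genes were called higher and 0 lower, beside 12.1% of all 11979 tested genes called higher and 9.83% called lower (22% in either direction). DESeq2 called the same number of genes higher and 0 lower, and at an unadjusted p under 0.05 in edgeR 1 of the 10, *Stat5a*, was lower. The median log2 fold change was -0.19 over the 4 pathway parts and 2.33 over the 6 targets, beside 0.01 over all tested genes. The 3 SOCS genes passed the filter on low counts through the Kit-lo libraries, so the median and the count over the targets are descriptions only. Bulk libraries cannot tell fewer cells of a type from less RNA per cell. The labels do not say whether libraries of a group came from separate mice, so the p-values measure the spread between these libraries. The control libraries held 17429262 to 21329242 counts and the Kit-lo libraries 18698840 to 19987964.

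**Figure D1:**
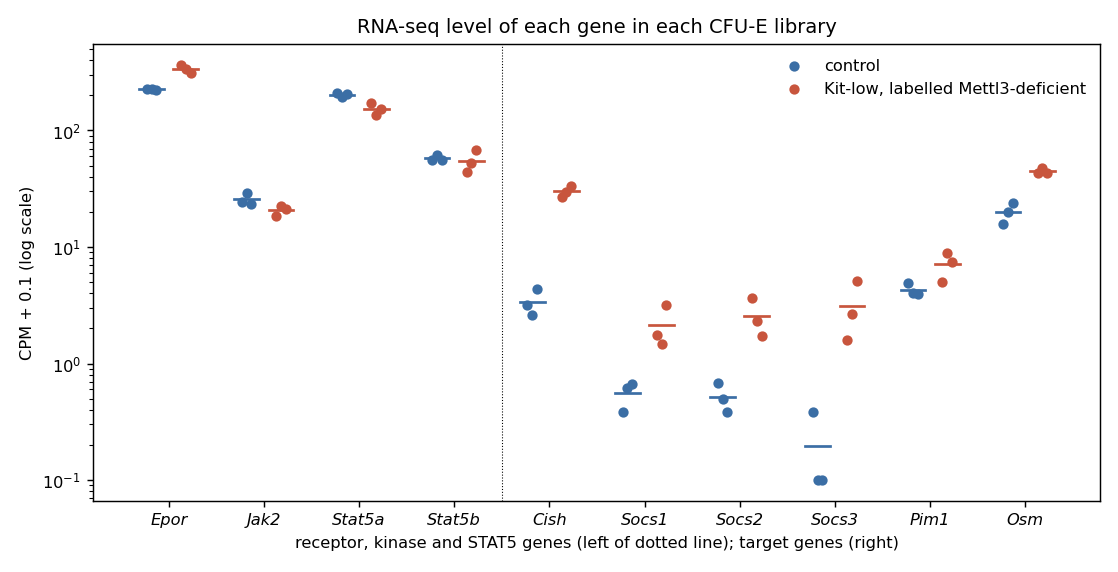
RNA-seq level of each of the 10 genes in each library, as CPM plus 0.1 on a log axis, with blue points for the 3 control CFU-E libraries, red points for the 3 Kit-lo libraries and bars at the group means. *Cish* stood at 2.52 to 4.29 CPM in control and 26.7 to 33.2 CPM in Kit-lo libraries, whereas the *Stat5b* points of the groups overlapped.

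*Mettl3* mRNA, which would check the genotype, averaged 123 ± 7.43 CPM in control and 117 ± 9.52 CPM in Kit-lo libraries (SD, n = 3 each). Its log2 fold change was -0.07, at an adjusted p of 0.634 from edgeR. Counts summed over a gene do not show whether the floxed exons were covered, so all directions below rest on the labels. For erythroid cells of the mutant mice the paper reports that *Mettl3* mRNA, measured by qRT-PCR, and METTL3 protein were absent. Those are other measures than the gene counts of these libraries. *Kit*, which checks the gate, fell from 598 ± 47.1 to 55.2 ± 12.4 CPM (SD, n = 3 each). The marker list for erythroid progenitors (10 of 10 genes in the table, *Klf1* the most abundant by the mean over the 6 libraries) summed to 4190, 4330 and 4300 CPM in control and 4820, 4530 and 4780 CPM in Kit-lo libraries. That list holds *Kit* and *Epor* themselves, and all of its genes had counts in every library.

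*Epor*, which encodes the receptor, lies at chr9:21958897-21963506 of GRCm38 and is read from the minus strand. Control CFU-E held 227, 226 and 223 CPM of it and CFU-E Kit-lo held 367, 339 and 313 CPM in CFU-E Kit-lo. Every Kit-lo library was above every control library, and the groups were 85.9 CPM apart at their nearest libraries. The log2 fold change was 0.59 (SE 0.080, 95% CI 0.41 to 0.77, adjusted p = 0.000357 from edgeR). The fold of 1.51 sat at the threshold of 1.5, and *Epor* was no longer called without control replicate 3 (log2 fold change 0.58), without Kit-lo replicate 1 (0.53), under upper quartile scaling (0.56), with no filter on low counts (0.57) or in a test against a fold of 1.5 (adjusted p = 0.803). Its direction was the same under each of these.

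*Jak2*, the kinase of the receptor, lies at chr19:29251828-29313080 on the plus strand. Its libraries were at 24.0, 29.2 and 23.3 CPM in control and 18.3, 22.5 and 20.97 CPM in CFU-E Kit-lo. All Kit-lo values were below all control values, by as little as 0.82 CPM between the nearest libraries. The log2 fold change was -0.31 (SE 0.15, 95% CI -0.65 to 0.04, adjusted p = 0.155 from edgeR), so the interval held both no change and a fall past the fold threshold.

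*Stat5a* and *Stat5b* encode the closely related factors activated by JAK2 and are neighbors, at chr11:100859351-100885169 on the plus strand and chr11:100780731-100850724 on the minus strand. *Stat5a* was at 209, 195 and 205 CPM in control and at 172, 137 and 153 CPM in CFU-E Kit-lo. The groups did not overlap, and the log2 fold change of -0.40 (SE 0.097, 95% CI -0.61 to -0.18) had an adjusted p of 0.0102 from edgeR but was smaller than the fold threshold, so *Stat5a* was not called. At any fold, 34.5% of the tested genes had an adjusted p under 0.05. *Stat5b* was at 56.0, 61.3 and 55.2 CPM in control and 44.3, 52.6 and 67.5 CPM in CFU-E Kit-lo, where the third library was above all controls and the other 2 were below them. Its log2 fold change was -0.07 (SE 0.15, 95% CI -0.41 to 0.27, adjusted p = 0.769 from edgeR).

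Counts of the *Stat5a* and *Stat5b* genes stood in a ratio of 3.73, 3.18 and 3.72 in control and 3.89, 2.60 and 2.27 in CFU-E Kit-lo libraries. The groups overlapped, since the first Kit-lo library had the highest ratio of all. The mean log2 ratio was 1.82 ± 0.131 (SD, n = 3) in control and 1.51 ± 0.404 (SD, n = 3) in CFU-E Kit-lo, a difference of -0.31 (exact permutation test, 2-sided, p = 0.4, where 0.1 is the smallest p that 3 against 3 libraries allow). The coding transcripts of *Stat5a* share 21.3% of their distinct 31-base words, the unit by which the counting program can assign reads, with other genes, and those of *Stat5b* 15.3%, in both cases mostly with each other. How the authors' quantification divided reads from these stretches was not tested.

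**Figure D2:**
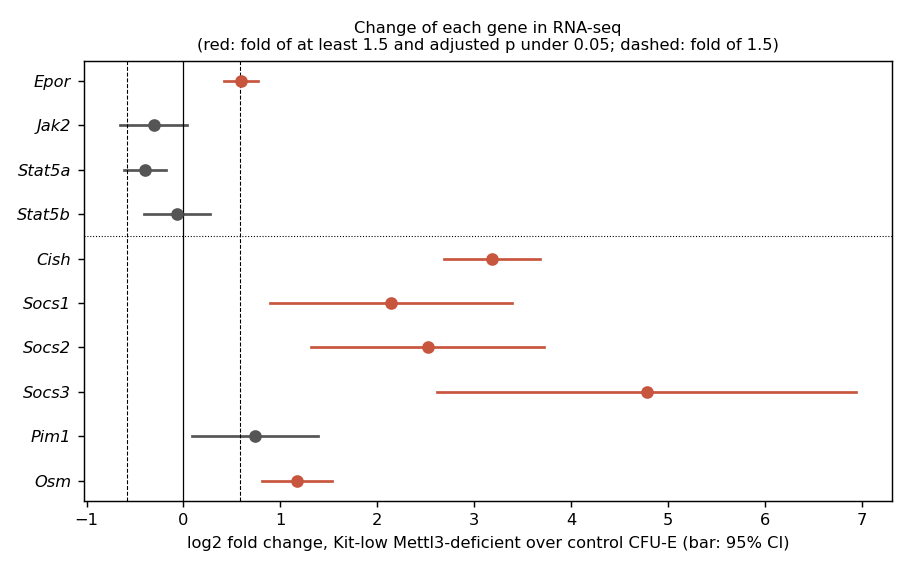
log2 fold change of each gene in CFU-E Kit-lo over control CFU-E with its 95% confidence interval, with red for genes called and gray for the others and dashed lines at a fold of 1.5. The intervals of *Cish*, *Socs1*, *Socs2*, *Socs3* and *Osm* lay wholly above the upper dashed line, while that of *Epor* crossed it.

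The target genes were examined for the STAT5 motif in the RefSeq promoters of GRCm38.p6, which run from 250 bases before to 50 bases after a gene's start. The motif TTCNNNGAA reads the same on both strands, and other STAT factors bind it too. A promoter was given for 8 of the 10 genes (not for *Socs2* and *Osm*), and 2 of the 8 held a match, beside 8.54% of the 9175 tested genes with a promoter. *Cish* held 2 matches, as 0.48% of those genes did for 2 or more in 1 promoter, and *Socs3* held 1. These sites are shown because *Cish* and *Socs3* had the largest fold changes of the 10 genes, with the motif in capitals and 10 bases on either side. Positions are counted from the RefSeq start, which for both genes lies inside the longer GENCODE gene. That gene is at chr9:107296026-107302784 for *Cish* and chr11:117966079-117970047 for *Socs3*. The first *Cish* site began at the first base of the RefSeq gene, the second 11 bases further on, and the *Socs3* site 154 bases before the start. The printed stretches, with the 10 bases on either side included, lie at chr9:107296649-107296677 and chr9:107296660-107296688 (plus strand) for *Cish*. For *Socs3* the stretch lies at chr11:117969502-117969530 (minus strand).
Cish site 1: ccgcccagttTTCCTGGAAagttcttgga
Cish site 2: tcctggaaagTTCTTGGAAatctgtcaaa
Socs3 site: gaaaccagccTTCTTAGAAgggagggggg
No match was found in these windows for *Socs1*, *Pim1*, *Epor*, *Jak2*, *Stat5a* or *Stat5b*, which says only that these letters are not there. For *Socs3* the 250 bases before the start, chr11:117969367-117969616, are given whole.
Socs3 promoter: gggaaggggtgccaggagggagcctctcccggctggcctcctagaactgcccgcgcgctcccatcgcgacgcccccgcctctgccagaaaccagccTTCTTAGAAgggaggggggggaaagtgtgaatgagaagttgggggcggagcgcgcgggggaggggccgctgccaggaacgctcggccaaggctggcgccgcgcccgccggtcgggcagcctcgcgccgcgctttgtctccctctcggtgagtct

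*Cish* encodes CIS, a SOCS family protein that binds the phosphorylated receptor where STAT5 docks, and lies at chr9:107296026-107302784 on the plus strand. It was at 3.06, 2.52 and 4.29 CPM in control and at 26.7, 29.8 and 33.2 CPM in CFU-E Kit-lo. The groups were far apart, with the lowest Kit-lo library at 6.22 times the highest control. Its log2 fold change was 3.18 (SE 0.22, 95% CI 2.69 to 3.68, adjusted p = 7.07e-06 from edgeR), which placed it 81st from the top of 11979 genes. Of its exonic bases, 4.07% overlap *Gm17040* and 7.46% overlap *Gm17041* on the opposite strand, and the strand used in counting is not given in the sources used here.

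*Socs1*, whose protein inhibits the JAK2 kinase, was at 0.287, 0.515 and 0.573 CPM in control and 1.66, 1.36 and 3.08 CPM in CFU-E Kit-lo. These values rest on 6, 9 and 10 counts against 32, 28 and 59. The groups did not overlap, and the log2 fold change was 2.14 (SE 0.56, 95% CI 0.90 to 3.39, adjusted p = 0.0139 from edgeR). The call was lost without control replicate 1 (adjusted p = 0.0644), without Kit-lo replicate 3 (0.0567) and in a test against a fold of 1.5 (0.0584). *Socs2*, which acts on growth hormone and other JAK2-coupled receptors, was at 0.575, 0.400 and 0.286 CPM in control and 3.53, 2.23 and 1.62 CPM in CFU-E Kit-lo. It had 12, 7 and 5 counts in control and 68, 46 and 31 in Kit-lo libraries, with no overlap. The log2 fold change was 2.52 (SE 0.54, 95% CI 1.31 to 3.73, adjusted p = 0.00519 from edgeR). Its transcripts share 18.8% of their 31-base words with other genes, mostly the gene *Gm9847*.

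*Socs3*, whose protein blocks JAK2 when bound to receptors of the gp130 and erythropoietin kind, had 6, 0 and 0 counts in control and 29, 53 and 96 counts in CFU-E Kit-lo. That is 0.287, 0 and 0 CPM against 1.51, 2.57 and 5.01 CPM, so all Kit-lo libraries were above all controls and differed 3.32-fold among themselves. The fitted log2 fold change was 4.78 (SE 0.97, 95% CI 2.62 to 6.94, adjusted p = 0.00376 from edgeR), and its size depends on how so few control counts are handled. With a library left out it ran from 4.22 to 8.83, the latter without control replicate 1, which held the only control counts. At the cutoff of 0.526 CPM that the filter used, *Socs3* passed in 0 of 3 control libraries and *Socs1* and *Socs2* in 1 of 3, against 3 of 3 Kit-lo libraries for each.

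*Pim1*, a survival kinase, lies at chr17:29490753-29496112 on the plus strand. It was at 4.84, 3.95 and 3.84 CPM in control and 4.93, 8.79 and 7.35 CPM in CFU-E Kit-lo. The groups did not overlap, but the lowest Kit-lo library was only 0.098 CPM above the highest control. The log2 fold change was 0.74 (SE 0.29, 95% CI 0.09 to 1.39, adjusted p = 0.0763 from edgeR), which was not called. Without Kit-lo replicate 1 it was 0.93 with an adjusted p of 0.0256. Of the exonic bases of *Pim1*, 14.5% overlap *Gm26885* on the opposite strand.

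*Osm*, a cytokine of the interleukin 6 family and an early target of STAT5, lies at chr11:4236420-4241026 on the plus strand. It was at 15.7, 19.7 and 24.0 CPM in control and 43.4, 47.3 and 43.0 CPM in CFU-E Kit-lo. All Kit-lo libraries lay close together and above all controls. The log2 fold change was 1.17 (SE 0.16, 95% CI 0.81 to 1.54, adjusted p = 0.000434 from edgeR). The receptor subunit for oncostatin M, *Osmr*, was at 1.69 ± 0.758 CPM in control and 1.65 ± 0.658 CPM in CFU-E Kit-lo, and its partner *Il6st* at 4.31 ± 1.20 and 6.12 ± 0.737 CPM (SD, n = 3 each). Neither was called, with adjusted p-values of 0.966 and 0.211 from edgeR.

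Of all 10 genes, 9 had groups that did not overlap, 7 with Kit-lo higher and 2 (*Jak2* and *Stat5a*) with Kit-lo lower, beside 47.5% of all tested genes without overlap (23.5% with Kit-lo higher and 24% lower). Among the 7 are *Socs1*, *Socs2* and *Socs3*, which passed the filter on low counts through the Kit-lo libraries. These counts are therefore descriptions only. Per kilobase of the longest coding transcript, the level in control CFU-E was highest for *Epor* at 128 ± 1.36 CPM per kb (SD, n = 3), followed by *Stat5a* at 52.2 ± 1.82, *Stat5b* at 11.0 ± 0.639, *Osm* at 8.72 ± 1.82, *Jak2* at 5.07 ± 0.635, *Pim1* at 1.56 ± 0.203 and *Cish* at 1.15 ± 0.319 CPM per kb. *Socs2* at 0.189, *Socs1* at 0.158 and *Socs3* at 0.0375 CPM per kb came last. Neighbors in this order whose libraries overlapped were *Pim1* and *Cish*, *Socs2* and *Socs1*, and *Socs1* and *Socs3*. In CFU-E Kit-lo *Osm* at 19.6 ± 1.06 CPM per kb was above *Stat5b* at 10.5 ± 2.26, and *Cish* at 10.5 ± 1.14 CPM per kb overlapped *Stat5b* and was above *Jak2* at 4.09 ± 0.417. *Epor* stayed first at 193 ± 15.1 CPM per kb, so the receptor transcript was the most abundant of the 10 in both groups on this scale.

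The late erythroid marker list moved between the same groups. Its summed level was 1400, 1270 and 1370 CPM in control and 4340, 6200 and 4900 CPM in CFU-E Kit-lo libraries. Of its 12 genes 11 were in the table, 9 were called higher and 0 lower, *Ermap* was the most abundant gene by the mean over the 6 libraries, none of the 11 was at 0 in any library, and the median log2 fold change was 4.99. *Ermap* was at 950, 838 and 924 CPM in control and 1312, 1254 and 1020 CPM in Kit-lo libraries, where the globin gene *Hba-a2*, whose reads cannot be cleanly told from those of its near copy *Hba-a1*, was at 1020, 1747 and 1202 CPM and so above it in replicates 2 and 3. In control *Hba-a2* was at 30.7, 28.8 and 27.02 CPM. The part of this shift in the changes of *Cish*, the SOCS genes, *Osm* and *Epor* was not tested. Macrophage markers (10 of 12 in the table, *Cd163* the most abundant, by the same mean) summed to 23.3, 23.0 and 28.4 CPM in control and 16.1, 12.6 and 16.4 CPM in Kit-lo libraries, where *Adgre1* was at 0 in all 3. Granulocyte markers (10 of 10, led by *Mpo*) summed to 39.2, 30.1 and 25.8 against 16.6, 16.2 and 24.8 CPM. Of the 4 granulocyte markers tested, *Mpo* fell by 1.97 (SE 0.57) and *Ngp* rose by 3.31 (SE 0.79) on the log2 scale, so that list went both ways. Megakaryocyte markers (4 of 8, led by *Vwf*) summed to 13.1, 20.4 and 14.0 against 22.9, 25.9 and 20 CPM, mast cell and basophil markers (4 of 6) to 2.25, 1.37 and 5.10 against 0, 0.0486 and 2.92 CPM, and lymphoid markers (6 of 7, led by *Ighm*) to 0.814, 1.72 and 2.35 against 3.84, 4.61 and 5.11 CPM. In the macrophage and granulocyte lists every control sum was above every Kit-lo sum, in the late erythroid, erythroid progenitor and lymphoid lists the reverse held, and in the other 2 the groups overlapped.

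The genes whose profile over the 6 libraries was most like that of *Epor*, by the root mean square difference of log2 CPM centered on the control mean among 6827 genes, were *Ckap2l* (0.029), *Prr14l* (0.0308), *Zfp953* (0.041), *Psd4* (0.0481) and *Rab8b* (0.0537). For *Cish* they were *Rab3il1* (0.287), *Ctsf* (0.316), *Tinagl1* (0.376), *Foxh1* (0.492) and *Dmtn* (0.497), among 6828 genes. The nearest profiles to *Epor* were thus closer to it than the nearest to *Cish* were to *Cish*. The 2 genes differ in mean control level (225 and 3.29 CPM) and in log2 fold change (0.59 and 3.18). Such a distance depends on both, so the comparison is a description only.

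Other genes of the pathway were followed in lists by role, each read against the 12.1% of all tested genes called higher and the 9.83% called lower. Among 16 adaptors and enzymes near the receptor, 2 were called higher and 3 lower, with a median log2 fold change of 0.16. The docking proteins *Irs2* and *Gab1* rose by 1.04 (SE 0.20) and 0.96 (SE 0.18) on the log2 scale. The phospholipase *Plcg2* fell by 2.72 (SE 0.59), the adaptor *Grb2* fell by 1.05 (SE 0.15) and the exchange factor *Vav1* fell by 1.05 (SE 0.14). Calls thus went both ways within this list.

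Among 14 attenuators, the phosphatases, ubiquitin ligases and SOCS or PIAS proteins that restrain the pathway, 2 were called higher and 3 lower, with a median of -0.01, beside 12.1% and 9.83% of all tested genes. *Socs6* rose by 1.14 (SE 0.11), from 44.4 ± 4.84 to 97.6 ± 1.26 CPM (SD, n = 3), and *Pias3* rose by 0.73 (SE 0.23). The phosphatase gene *Ptprc* fell by 1.85 (SE 0.24), *Socs5* fell by 1.41 (SE 0.41) and the ubiquitin ligase gene *Cbl* fell by 1.04 (SE 0.19). The SOCS genes outside the 10 therefore did not share one direction, since *Socs6* rose, *Socs5* fell, and *Socs4* (0.07) and *Socs7* (-0.17) were not called. Among 7 partners of the receptor and its trafficking, 0 were called higher and 1 lower by both edgeR and DESeq2, the polarity protein gene *Scrib* at -0.62 (SE 0.21), and at an unadjusted p under 0.05 1 was higher and 3 were lower. In that list *Tfr2*, a partner of EPOR, was at -0.11, *Erp29* at 0.34, *Rnf41* at -0.01, *Usp8* at -0.02, and the chaperone genes *Hsp90aa1* and *Hsp90ab1* at -0.39 and -0.36 (adjusted p = 0.0189 and 0.00325 from edgeR), none past the fold threshold.

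Among other JAK and STAT genes, *Jak3* fell by 0.70 (SE 0.21), from 19.2 ± 1.26 to 11.8 ± 3.03 CPM (SD, n = 3). *Jak1* was at -0.39 (SE 0.094, adjusted p = 0.00904 from edgeR) and below the fold threshold. *Stat2* (0.24), *Stat3* (0.36), *Stat6* (0.25) and *Tyk2* (0.23) were not called. *Jak2* itself thus had a smaller fitted change than *Jak3*, and the difference between them was not tested.

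Of 15 other genes known to respond to erythropoietin or STAT5, counting *Fam132b*, an older symbol of *Erfe*, 12 were tested, 5 were called higher and 1 lower, beside 12.1% and 9.83% of all tested genes. *Podxl*, a sialomucin of progenitors and stress erythropoiesis, rose by 5.82 (SE 0.21), from 3.20 ± 0.490 to 182 ± 41.3 CPM (SD, n = 3). *Trib3* rose by 5.08 (SE 0.50), *Erfe*, the erythroid hormone that lowers hepcidin, by 4.12 (SE 0.43), the cyclin gene *Ccnd3* by 1.68 (SE 0.12) and *Bcl2l1*, which encodes the survival protein BCL-XL, by 1.42 (SE 0.15). *Pim3*, a relative of *Pim1*, fell by 1.59 (SE 0.31), while *Pim2* was at 0.29 (adjusted p = 0.326 from edgeR), so the PIM genes differed in their calls. *Trib3* had 1, 7 and 6 counts in control, below the filter's cutoff in all 3 libraries, and passed through the Kit-lo libraries alone, so the count over this list is a description only. *Mcl1* (0.56), *Ccnd2* (0.18) and *Tfrc* (-0.13) were not called.

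**Figure D3:**
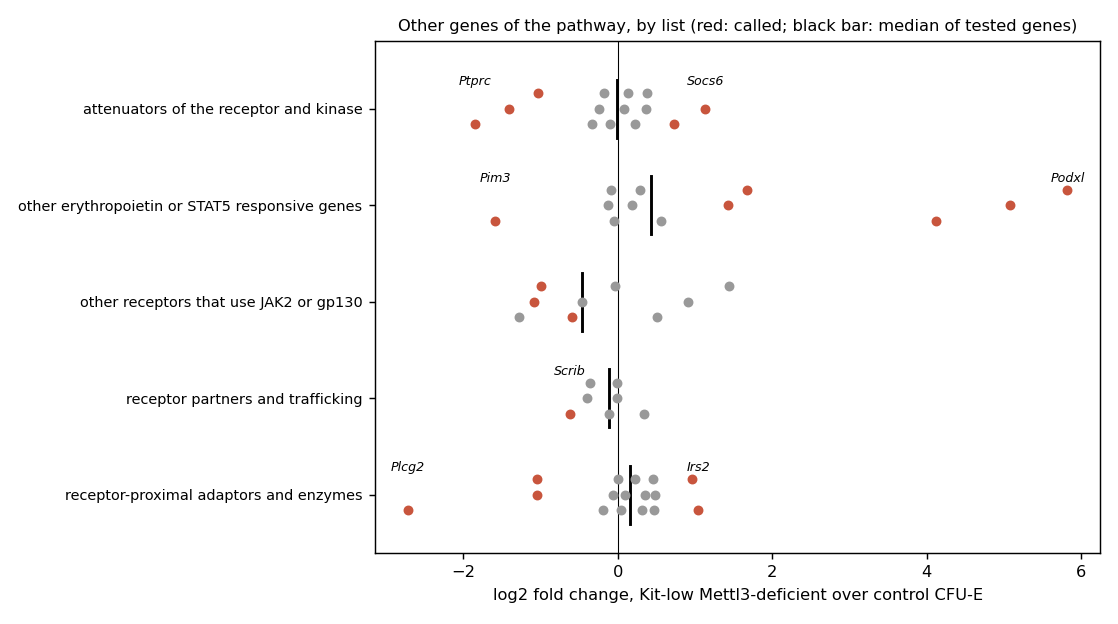
log2 fold change of every tested gene in 5 other lists of the pathway (adaptors, attenuators, receptor partners, other receptors and responsive genes), in CFU-E Kit-lo over control CFU-E, with red points for called genes and a black bar at the median of each list. The list of other erythropoietin or STAT5 responsive genes reached 5.82 (*Podxl*), while calls in the lists of adaptors and attenuators fell on both sides of 0.

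The m6A experiment asked which transcripts of control CFU-E were retained by an antibody to m6A. It was a SLIM-seq design, in which whole transcripts were precipitated before 3′ libraries were made, so each value is one ratio of IP over input per gene and gives no site. Of 11447 tested genes 7.9% were called enriched in IP and 7.86% lower. Of the 10 genes 9 were tested, 0 were called enriched and 1, *Socs1*, was called lower. DESeq2 called 0 in either direction, and 0 genes were higher in IP at an unadjusted p under 0.05 in edgeR. The scaling of the IP libraries moved the median log2 ratio of all genes from 0.06 to 0.21 with library sizes alone and 0.18 with upper quartile scaling, and ratios below are relative to the first.

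Among the pathway parts, *Epor* was at 88.1 and 101 CPM in input and 83.5 and 81.7 CPM in IP. Both IP libraries were below both input libraries, as for 28.7% of all tested genes, and the log2 ratio was -0.19 (SE 0.21, 95% CI -0.66 to 0.28, adjusted p = 0.577 from edgeR). *Jak2* was at 5.73 and 5.40 CPM in input and 8.08 and 5.13 CPM in IP, with overlap and a log2 ratio of 0.26 (SE 0.33, adjusted p = 0.634 from edgeR). *Stat5a* was at 24.6 and 20.9 CPM in input and 37.02 and 26.2 CPM in IP, and *Stat5b* at 8.86 and 7.53 against 14.0 and 9.40 CPM. Both STAT5 genes were higher in both IP libraries than in both input libraries, as 32.2% of all tested genes were beside 60.9% without overlap in either direction, with log2 ratios of 0.48 (SE 0.26, adjusted p = 0.243) and 0.52 (SE 0.30, adjusted p = 0.265 from edgeR), and neither was called. The count ratio of *Stat5a* to *Stat5b* was 2.78 and 2.77 in input and 2.64 and 2.79 in IP.

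Among the targets, *Cish* was at 2.12 and 2.42 CPM in input and 1.08 and 1.36 CPM in IP. The groups did not overlap, and the log2 ratio of -0.91 (SE 0.43, 95% CI -1.87 to 0.06, adjusted p = 0.181 from edgeR) was not called. *Socs1* had 12 and 15 counts in input and 4 and 3 counts in IP, with a log2 ratio of -2.49 (SE 0.73, adjusted p = 0.0439 from edgeR). *Socs1* passed the filter through the input libraries alone, and its call was lost with any 1 of the 4 libraries left out, where the adjusted p ran from 0.0898 to 0.326. *Socs3* had 4 and 8 counts in input and 1 and 0 in IP and was not tested.

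*Socs2* was at 2.65 and 1.52 CPM in input and 2.28 and 2.16 CPM in IP (log2 ratio 0.08, SE 0.43), *Pim1* at 5.9955 and 11.8 against 10.05 and 11.9 CPM (0.31, SE 0.34) and *Osm* at 8.82 and 6.41 against 7.19 and 5.83 CPM (-0.22, SE 0.31). In each of these 3 genes the groups overlapped, and their adjusted p-values ran from 0.582 to 0.917. The median log2 ratio was 0.37 over the 4 pathway parts and -0.22 over the 5 tested targets, beside 0.06 over all tested genes.

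**Figure D4:**
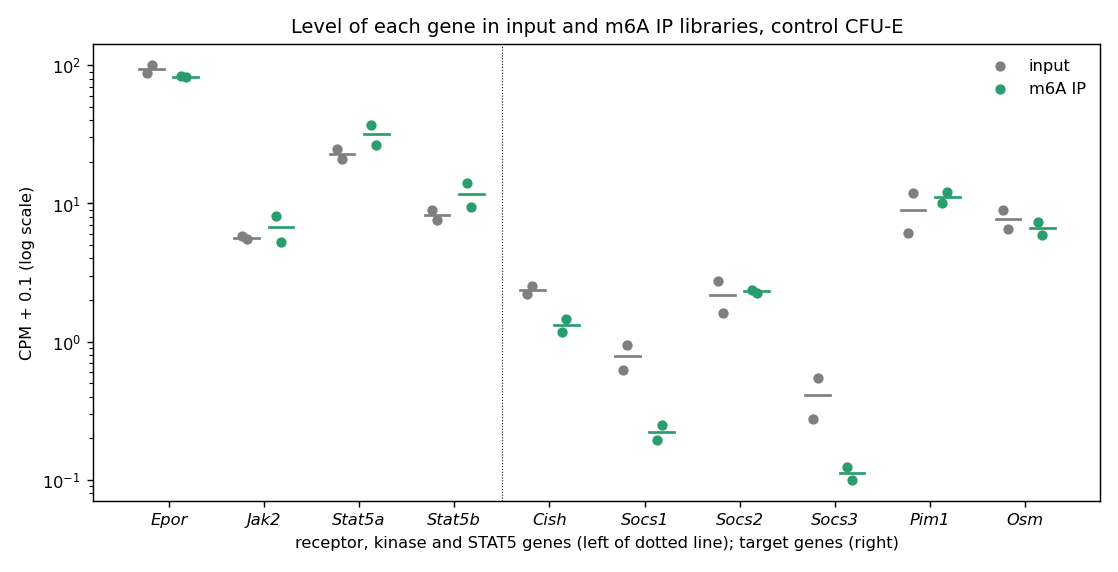
Level of each of the 10 genes in the 2 input (gray) and 2 m6A IP (green) libraries of control CFU-E, as CPM plus 0.1 on a log axis, with bars at the means. The points of input and IP lay near each other for *Epor*, *Jak2*, *Socs2*, *Pim1* and *Osm*. Both IP libraries were below both input libraries for *Socs1*, and also for *Epor*, *Cish* and *Socs3*.

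The motif GGACT, the most common form of the m6A site, was counted in the sense direction of the longest coding transcript of each gene in GENCODE vM21. *Epor* had 4 matches in 1761 bases, or 2.27 per kb, which was more than in 93.1% of 11419 genes (median 1.03 per kb). *Socs1* had the lowest density of the 10 at 0.344 per kb, *Jak2* and *Stat5a* were below the median of all genes at 0.795 and 0.772, *Stat5b* had 1.15, *Socs3* 1.18, *Osm* 1.32, *Socs2* 1.35, *Cish* 1.40 and *Pim1* 1.85 per kb. Over all genes, the median log2 IP over input was -0.05 for the 4297 with no GGACT in the 3′UTR, 0.08 for the 4513 with 1 or 2 and 0.19 for the 2609 with 3 or more, given as a description. None of the matches in *Epor* began in its 3′UTR of 162 bases. The 4 sites are shown because *Epor* had the highest density of the 10 genes without being enriched in IP, with GGACT in capitals and 10 bases on either side, written as DNA.
Epor GGACT at transcript base 291, exon 2: gctccgggatGGACTtcaactacag
Epor GGACT at transcript base 899, exons 6 and 7: tcccaccgccGGACTctgcagcaga
Epor GGACT at transcript base 1506, exon 8: gagtccacggGGACTcatctgatgg
Epor GGACT at transcript base 1599, exon 8: cctgctcctaGGACTccagcctaca
The first 3 lie in coding sequence, at chr9:21962232-21962236 for the first and chr9:21959148-21959152 for the third on the minus strand, and the second spans the junction of 2 exons. The last, at chr9:21959055-21959059, begins with the final base of the stop codon. A match is a description of the sequence and no evidence of a methylated base.

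In the other lists of the pathway, IP over input was called in both directions, beside 15.8% of all tested genes called in either. Among the 16 adaptors and enzymes 3 were enriched, the kinase gene *Lyn* at 1.37 (SE 0.31), *Sos1* at 1.18 (SE 0.29) and *Shc1* at 0.99 (SE 0.30), and 2 were lower, *Grb2* at -3.82 (SE 0.24) and *Akt1* at -1.25 (SE 0.30). *Grb2* had 198 ± 12.1 CPM in input and 14.0 ± 1.89 CPM in IP (SD, n = 2). Among the 14 attenuators 3 were enriched, *Pias3* at 1.46 (SE 0.41), *Socs7* at 1.35 (SE 0.36) and *Socs6* at 1.15 (SE 0.35), and 1 was lower, *Ptpn6* at -0.70 (SE 0.21). *Socs6* and *Pias3* were thus called higher in both experiments and *Grb2* lower in both.

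None of the 7 receptor partners was called in IP by edgeR, and their median log2 ratio was 0.01. This list and the next are read beside 7.9% of all tested genes called enriched in IP and 7.86% called lower. At an unadjusted p under 0.05, 0 of the partners were higher and 1 was lower, and DESeq2 called 1, *Erp29*, lower. Of the 11 tested erythropoietin or STAT5 responsive genes 0 were enriched, by DESeq2 too, with 1 higher at an unadjusted p under 0.05, and 2 were lower in edgeR, *Bcl6* at -2.69 (SE 0.77) and *Serpina3g* at -1.34 (SE 0.30). *Bcl6* rested on 29 and 9 counts in input and 4 and 4 in IP, and DESeq2 called *Pim2* and *Serpina3g* lower but not *Bcl6*. The IP and input libraries were read to 23160909 and 19421059 counts for input and 37142742 and 20085663 for IP, and with 2 libraries in each group a gene of the level of *Cish* had a 95% CI 1.93 log2 units wide.

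**Figure D5:**
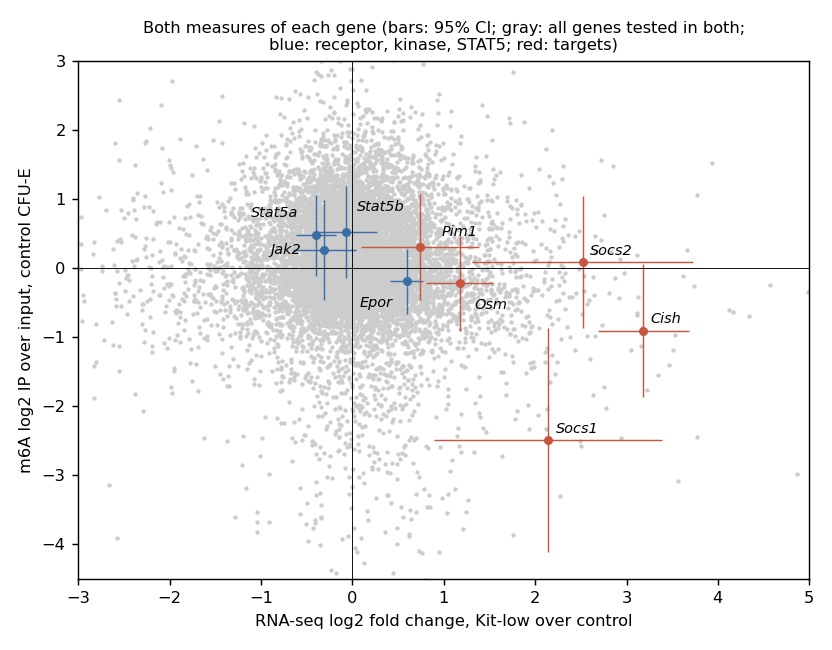
RNA-seq log2 fold change in CFU-E Kit-lo over control (x axis) and m6A log2 IP over input in control CFU-E (y axis) of the 9 genes tested in both, with 95% confidence intervals, blue for pathway parts, red for targets and gray for the 10773 genes tested in both experiments, of which 126 lie outside the plotted range. *Cish*, *Socs1* and *Socs2* stood to the right with log2 fold changes of 2.14 to 3.18, and the intervals of the IP ratio crossed 0 for all but *Socs1*.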

How the data were processed

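Smart-seq2 RNA-seq libraries (3 control CFU-E, 3 labelled *Mettl3*-deficient CFU-E Kit-lo) and SLIM-seq m6A libraries (2 IP, 2 input of control CFU-E) were analysed, grouped by their labels; 6 ProE samples were not analysed here. The counts for the list of other JAK and STAT genes are not reported here. The authors trimmed reads with fastp 0.23.4, quantified them with Kallisto 0.48.0 on mm10 and merged transcripts to genes with tximport, and deposited estimated counts that are whole numbers and not normalized. The labels name GRCm39 as well. Use of strand and of the 8-base molecular identifiers in the counting is not given in the sources used here, and PCR copies are not independent molecules.

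Counts were tested in R 4.3.3 with edgeR 4.0.16 (filterByExpr, TMM, glmQLFit, glmQLFTest), each experiment apart, with Benjamini-Hochberg adjustment over all genes tested. Levels are CPM with TMM factors. RNA-seq calls needed a fold of at least 1.5 and an adjusted p under 0.05, and m6A calls an adjusted p under 0.05. The standard error is the absolute log2 fold change over the square root of F. The code was tested on simulated data. DESeq2 1.42.0 was an alternative. No library was a copy of another, with chi-square per degree of freedom of at least 10.2 between libraries of a group.

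The members and lists were chosen with earlier results of these data known. Named genes are all 10 members, from each other list up to 3 called genes with the largest change at a mean of at least 1 CPM in 1 group (every gene of lists of 8 or fewer), the 5 genes most like *Epor* and *Cish*, *Mettl3* and *Kit*. Beyond the rule, *Osmr*, *Il6st*, *Mcl1*, *Ccnd2*, *Tfrc*, *Pim2*, *Pim3*, *Ccnd3*, *Bcl2l1*, *Socs4*, *Socs7*, *Cbl*, *Pias3*, *Irs2*, *Gab1*, *Sos1*, *Shc1*, *Ptpn6* and *Bcl6* were chosen after their values were seen. Coordinates come from GENCODE vM21 on GRCm38, where 99.9% of the RNA-seq genes were found by symbol, and promoters from RefSeq on GRCm38.p6. Figures were drawn with Python 3.11.15.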

Additional observations from a re-analysis of the deposited data

How the results depend on the processing

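Of the 10 genes, 4 to 6 were called in the RNA-seq under the 14 alternatives, 5 to 6 with a library left out, and none of the 6 calls changed direction. A test against a fold of 1.5 called 1147 genes in place of 2631 (665 higher, 482 lower), and leaving out a library gave 2180 to 2726. Calls were 61.0% higher with library sizes alone and 50.7% with upper quartile scaling, beside 55.2%. *Stat5b* ran from -0.24 to 0.06, the latter without Kit-lo replicate 1. The *Stat5a* to *Stat5b* difference ran from -0.54 to -0.15.

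In m6A, 1451 genes were enriched with upper quartile scaling, and 164 to 1358 with a library left out, beside 904; the lowest was without input replicate 1. The one called gene, *Socs1*, was lost, leaving 0, under DESeq2 (no adjusted p given), library sizes alone (adjusted p = 0.0555), no filter (0.0718) and each library left out (0 to 0), and was not tested with a 1 CPM filter. With a library left out, *Pim1* ran from -0.13 to 0.86 and *Osm* from -0.44 to 0.00325 (both reversed without input replicate 1), *Socs2* from -0.26 to 0.53 (input replicate 2) and *Jak2* from -0.14 to 0.53 (IP replicate 1); the cause was not tested.

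The labels do not say that same-numbered libraries share a source. Their deviations correlated at 0.20, 0.02 and -0.12 in the RNA-seq and at 0.49 in the m6A libraries, where 2 pairs give 1 value. A replicate block gave 2495 RNA-seq calls and 1783 enriched and 1755 lower m6A genes, and changed no call of the 10 genes. Low counts limit *Socs1*, *Socs2* and *Socs3*, and 2 libraries a group limit m6A.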

Other observations

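Other receptors that signal through JAK2 or gp130 were measured in the same libraries. Of 13 listed genes 9 were tested, 0 were called higher and 3 lower in CFU-E Kit-lo by both edgeR and DESeq2, with 0 higher at an unadjusted p under 0.05, and the median log2 fold change was -0.47. Of all tested genes 12.1% were called higher and 9.83% lower. *Ifngr1*, the ligand-binding chain of the interferon gamma receptor, fell by 1.09 (SE 0.11), from 861 ± 99.3 to 404 ± 43.2 CPM (SD, n = 3). Its partner *Ifngr2* fell by 0.60 (SE 0.20), and *Csf2ra*, a chain of the GM-CSF receptor, fell by 0.99 (SE 0.22). For each of these 3 genes, named because they were called lower, every Kit-lo library was below every control library, as for 24% of all tested genes. In m6A IP over input 0 of the 8 tested genes were called by edgeR or DESeq2, with 1 higher and 1 lower at an unadjusted p under 0.05, and the median log2 ratio was 0.26. Of all tested genes 15.8% were called in either direction by edgeR.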
